A study of Mus musculus with 14 samples.

Results

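Transcripts of 8 genes of the spindle assembly checkpoint and of the activators of the anaphase-promoting complex (APC/C) were followed in full-grown mouse oocytes. The genes were *Mad1l1*, *Mad2l1*, *Bub1*, *Bub1b*, *Bub3*, *Ttk*, *Cdc20* and *Fzr1*, taken by symbol from a list of checkpoint genes and APC/C activators, and are 8 of the 20337 genes with a symbol among 26495 RefSeq transcripts counted. Where a gene had several transcripts in the counts, the one with the highest mean count stood for it. All 8 were counted in every library and passed the filter on low counts in each comparison.

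The study asked what the endonucleolytic (catalytic) activity of AGO2 does in meiosis. RNA-seq was performed on 14 libraries of 20 germinal vesicle-intact oocytes each, pooled from several mice, from females of 4 to 6 weeks primed with 5 IU of eCG 48 h earlier. There were 3 libraries of Ago2 fl/fl, the controls with floxed alleles and no Cre, and 3 of Ago2 ADH, in which a floxed allele was removed by Cre under the oocyte promoter of *Zp3* and the remaining allele codes for catalytically inactive AGO2. A further 2 libraries were of Ago2 null oocytes, fl/fl with the same Cre, 3 of Dicer WT and 3 of Dicer KO, an oocyte-specific deletion of *Dicer*. All groups were of a mostly C57BL6 but mixed background, so control and mutant mice need not share the same alleles elsewhere. Because libraries were pools of whole oocytes, fewer contributing cells and less RNA per cell cannot be told apart.

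The spindle assembly checkpoint is a surveillance system that delays anaphase until chromosomes are attached to the spindle. At kinetochores without attachment, the kinase TTK (MPS1) starts the assembly of BUB1, BUB1B (BUBR1), BUB3, MAD1 and MAD2, and a complex of MAD2, BUBR1 and BUB3 captures CDC20, the activator that the APC/C needs in order to destroy cyclin B and securin. FZR1 (CDH1) is the other activator of the APC/C and is known in oocytes for keeping cyclin B low during prophase arrest, whereas CDC20 acts at the metaphase to anaphase transition.

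Total counts on transcripts ranged from 29380403 to 58285057 per library. Alignments that were not unique, which were tallied apart, numbered 0.557 to 0.597 per count on transcripts in Ago2 fl/fl, 1.58 to 1.66 in Ago2 ADH and 1.57 to 1.66 in Ago2 null. The values were 0.388 to 0.536 in Dicer WT and 0.939 to 1.19 in Dicer KO. A read with several alignments may enter more than once, so this is not a number of reads. This tally moved with genotype, and its part in the results below was not tested. Codes in the names under which the counts were deposited, and no label or stated method, place the 3 Ago2 genotypes on different sequencing lanes; if so, effects of lane and genotype cannot be told apart. *Ago2* had a mean of 24.6 normalized CPM in Ago2 fl/fl, 13.0 in Ago2 ADH (log2 fold change -0.87) and 6.23 in Ago2 null (-1.95), in the order of the labels. *Dicer1* had 758 in Dicer WT and 1815 in Dicer KO, and counts over a whole transcript do not resolve the deleted exons, so they do not check that label. Each of these genes also moved in the other series, with every change called. *Ago2* fell from 26.1 in Dicer WT to 17.7 in Dicer KO (log2 fold change -0.56), and *Dicer1* rose in Ago2 ADH (0.67) and Ago2 null (0.59). Summed oocyte markers (10 genes, *Gdf9* and *Zp3* among them) stood at 14139.7 to 14857 CPM in Ago2 fl/fl, 14530.2 to 15400.1 in Ago2 ADH, 14658 to 16397 in Ago2 null, 11181 to 11389 in Dicer WT and 9919 to 10729.6 in Dicer KO, so that every Dicer KO library was below every Dicer WT library. Of these 10 genes, however, 1 was called up and 2 down in Dicer KO, 5 up and 2 down in Ago2 ADH, and 5 up and 1 down in Ago2 null. The 12 cumulus and granulosa markers stood together at 76.6 to 82.1 CPM in Ago2 fl/fl, 62.3 to 67.6 in Ago2 ADH, 54.8 to 59.4 in Ago2 null, 93.9 to 103 in Dicer WT and 74.5 to 80.3 in Dicer KO. This sum was lower in every mutant library than in every control library of its own experiment. Gene by gene, 1 of 8 tested follicle cell markers rose in Ago2 ADH (*Cyp11a1*, log2 fold change 1.73) and 3 fell, 1 of 9 fell in Ago2 null, 3 of 7 fell in Dicer KO, and the rest were not called. *Cyp19a1* (21.0 to 58.5 CPM) and *Nr5a2* (26.4 to 41.6 CPM) made up most of this sum, whereas *Foxl2* was at 0 counts in 8 libraries, *Amh* and *Lhcgr* in 5 each and *Amhr2* in 3. The part of either marker list in the results was not tested.

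Levels were first compared between the 8 genes within a genotype, as counts per kb of transcript per 1000000 counts on transcripts. The gene with the highest level was *Bub1b*, the BUBR1 pseudokinase that binds CDC20, at 234 ± 5.49 in Ago2 fl/fl (mean ± SD, n = 3). It was followed by *Ttk* (133 ± 3.89) and *Mad2l1* (116 ± 4.07). *Bub3* (53.4 ± 3.08) and *Bub1* (44.2 ± 0.884) came next. The APC/C activators were lower, with *Cdc20* at 23.9 ± 0.348 and *Fzr1* at 18.2 ± 1.29, and *Mad1l1*, the anchor of MAD2 at the kinetochore, was lowest at 9.10 ± 0.0747. *Bub1b* therefore stood 25.7-fold above *Mad1l1*, and 22.3- to 29.1-fold above it over the 5 groups.

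The same 3 genes led in this order, and *Mad1l1* closed it, in every group. *Bub1* lay below *Bub3* in Ago2 fl/fl and above it in the other 4 groups. *Cdc20* lay above *Fzr1* everywhere except in Ago2 ADH, where *Fzr1* reached 23.9 ± 0.943 and *Cdc20* 22.7 ± 0.306, with overlapping libraries. Of 35 neighbouring pairs in these orders, 33 did not overlap between libraries, and the other overlap was *Fzr1* with *Mad1l1* in Dicer WT. Lengths are those of annotated transcripts, so a level depends on the annotation being the form that oocytes express.

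**Figure D1:**
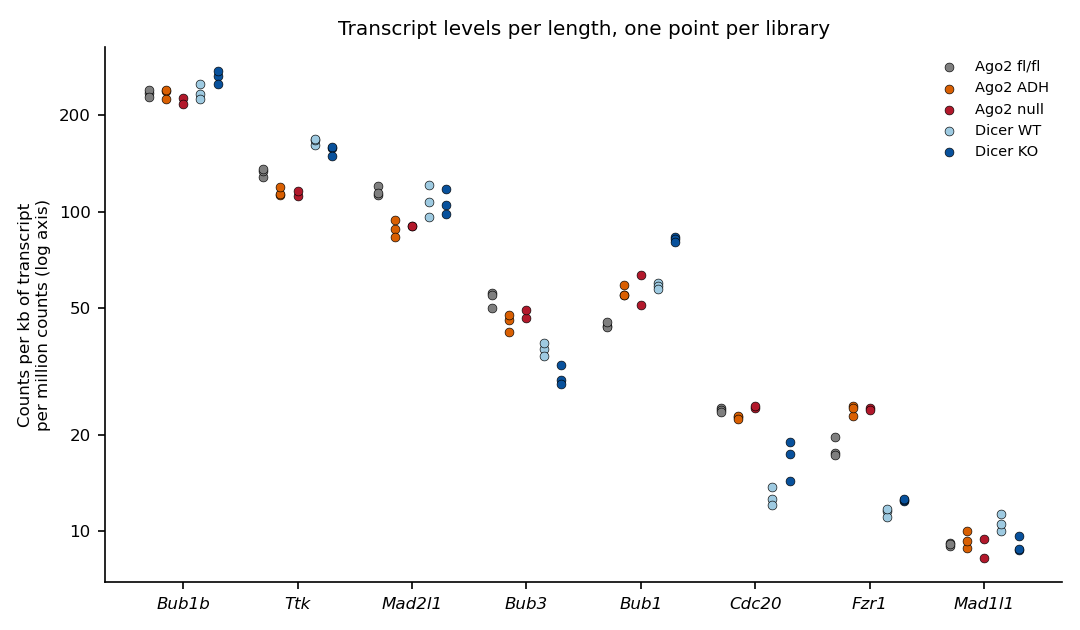
Level of each gene (counts per kb of transcript per 1000000 counts on transcripts, logarithmic axis) with one point per library, coloured by group and ordered by the Ago2 fl/fl mean. *Bub1b*, *Ttk* and *Mad2l1* are the 3 highest and *Mad1l1* the lowest in each group.

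Promoter sequence was examined because proliferating cells switch many of these genes together through cell cycle elements in their promoters. The CHR element (TTTGAA) and the CCAAT box (CCAAT) were searched on both strands in the 250 bases before each RefSeq start site (GRCm38.p6). All 8 genes were matched, with 10 start sites. A CCAAT box was found for 6 of the 8 genes, all but *Mad1l1* and *Mad2l1*, and in 33.8% of 32851 promoters of the same length. A CHR element was found for 2 genes, *Cdc20* and *Bub3*, and in 16.0% of all promoters. No match overlapped the other motif. A match is a run of letters and not evidence of a bound factor. The study describes full-grown oocytes as transcriptionally inactive, and the part of promoters in the changes below was not tested. Promoters of 4 genes are shown because their transcripts moved in different ways below: *Bub1* rose in all 3 mutants, *Fzr1* rose and *Mad2l1* fell in both Ago2 mutants, and *Cdc20* rose in Dicer KO. Capitals mark the motifs. They lie at chr2:127831860-127832109 (minus strand, *Bub1*), chr10:81378371-81378620 (minus, *Fzr1*), chr6:66534971-66535220 (plus, *Mad2l1*) and chr4:118437344-118437593 (minus, *Cdc20*).
Bub1: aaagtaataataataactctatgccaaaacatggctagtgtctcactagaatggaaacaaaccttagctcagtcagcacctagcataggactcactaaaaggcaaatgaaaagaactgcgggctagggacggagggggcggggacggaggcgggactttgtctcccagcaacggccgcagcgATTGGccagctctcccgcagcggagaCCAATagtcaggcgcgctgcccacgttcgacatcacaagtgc
Fzr1: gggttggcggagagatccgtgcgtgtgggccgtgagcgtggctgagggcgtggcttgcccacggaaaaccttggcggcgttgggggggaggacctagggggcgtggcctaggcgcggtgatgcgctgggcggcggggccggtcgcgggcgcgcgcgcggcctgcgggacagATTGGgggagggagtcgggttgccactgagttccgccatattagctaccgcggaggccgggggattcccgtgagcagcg
Mad2l1: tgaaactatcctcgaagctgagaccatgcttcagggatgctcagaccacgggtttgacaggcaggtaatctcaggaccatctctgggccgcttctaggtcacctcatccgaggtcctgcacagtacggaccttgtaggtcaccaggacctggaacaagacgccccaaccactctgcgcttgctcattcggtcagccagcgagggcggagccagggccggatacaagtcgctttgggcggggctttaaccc
Cdc20: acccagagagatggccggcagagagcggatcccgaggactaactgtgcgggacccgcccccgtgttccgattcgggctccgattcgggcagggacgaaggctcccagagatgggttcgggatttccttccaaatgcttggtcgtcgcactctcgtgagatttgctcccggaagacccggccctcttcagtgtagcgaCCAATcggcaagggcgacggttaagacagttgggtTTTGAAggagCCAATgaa
In *Cdc20* the CHR element lies 18 to 13 bases before the start, with CCAAT boxes 53 to 49 and 8 to 4 bases before it. *Bub1* has CCAAT boxes on opposite strands, 68 to 64 and 42 to 38 bases before the start, and *Fzr1* has 1 on the minus strand, 79 to 75 bases before it.

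Expression was then compared between mutant and control oocytes, with TMM-normalized counts per 1000000 counts (CPM) for values and log2 fold changes from edgeR's quasi-likelihood test, adjusted by the Benjamini-Hochberg method over all transcripts tested, at an FDR of 1%. When Ago2 ADH oocytes were set against Ago2 fl/fl, 4 of the 8 genes passed the test, with *Bub1* and *Fzr1* up and *Mad2l1* and *Ttk* down. Over all 18835 transcripts tested, 40.7% passed, 20.5% up and 20.1% down. For Ago2 null against the same controls the count was again 4, 2 up and 2 down, against 37.2% of 19236 transcripts (18.1% up and 19.1% down). In Dicer KO vs. Dicer WT oocytes 3 genes passed, *Bub1*, *Cdc20* and *Bub1b*, all up, against 34.5% of 18570 transcripts (16.7% up and 17.8% down). The shares of the 8 genes called were thus near those of all transcripts. Changes were small. The median absolute log2 fold change of the 8 genes was 0.18, 0.16 and 0.20 in the 3 comparisons, beside 0.34, 0.37 and 0.36 over all transcripts tested. The filter let in transcripts from a minimum count of 10, whereas the 8 genes had 683 to 51155 counts per library. The 8 genes were not compared with transcripts of like counts, so these medians do not show that they moved less. Both Ago2 comparisons used the same 3 control libraries, so their values are given side by side and are not independent of each other.

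**Figure D2:**
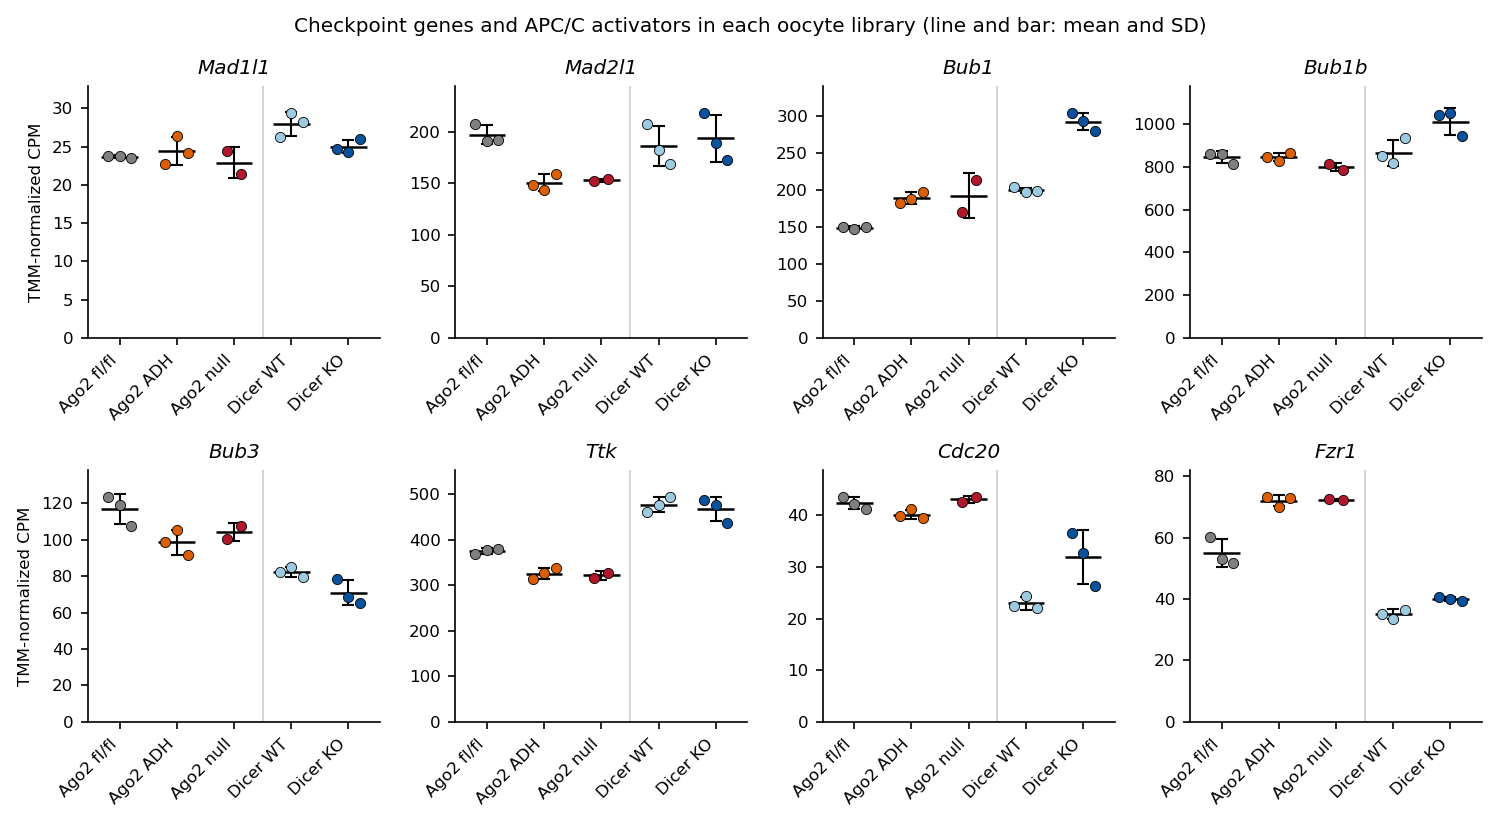
TMM-normalized CPM of each gene in each library (points), with the mean and SD of each group. The mutant libraries of *Bub1* all lie above their controls, and those of *Mad2l1* and *Ttk* lie below the controls only in the Ago2 groups.

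*Mad1l1* (NM_010752, chr5:140008689-140321608 of GRCm38, minus strand) codes for MAD1, which holds MAD2 at unattached kinetochores. It ranged from 21.5 to 26.4 normalized CPM in the 8 Ago2 libraries and from 24.3 to 29.4 in the 6 Dicer libraries. The Ago2 groups overlapped, and the log2 fold change was 0.09 (SE 0.08) in Ago2 ADH and -0.01 (SE 0.09) in Ago2 null. In the Dicer groups the highest KO library (26.0) lay just under the lowest WT library (26.3), with a log2 fold change of -0.16 (SE 0.09, adjusted p = 0.163). This gene was not called in any of the 3 comparisons. Noncoding genes *Gm30492* and *Gm16120* overlap it in the annotation and were not among the transcripts counted.

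*Mad2l1* (NM_019499, chr6:66535221-66541107, plus strand) codes for MAD2, the protein that binds CDC20 directly. It was counted at 208, 191 and 192 normalized CPM in Ago2 fl/fl, at 148, 143 and 159 in Ago2 ADH, and at 152 and 154 in Ago2 null libraries. All 5 mutant libraries lay below all 3 controls. *Mad2l1* fell by 0.34 (log2) in Ago2 ADH (SE 0.05, adjusted p = 3.07e-05) and by 0.34 in Ago2 null (SE 0.06, adjusted p = 1.78e-04). Dicer libraries had 207, 182 and 169 in WT and 218, 189 and 173 in KO libraries. These groups overlapped almost completely, with a log2 fold change of 0.05 (SE 0.08, adjusted p = 0.641).

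*Bub1* (NM_001113179, chr2:127800197-127831859, minus strand) codes for the kinase that recruits other checkpoint proteins and shugoshin to the inner centromere. It was the 1 gene of the 8 called in all 3 mutants. Its values were 149.6, 147 and 151 normalized CPM in Ago2 fl/fl, 182, 188 and 198 in Ago2 ADH, and 171 and 214 in Ago2 null libraries. Every mutant library was above every control, and the Ago2 null libraries were the furthest apart. *Bub1* rose by 0.39 (log2) in Ago2 ADH (SE 0.05, adjusted p = 2.23e-06) and by 0.40 in Ago2 null oocytes (SE 0.08, adjusted p = 3.51e-04). Without Ago2 null replicate 2 the latter was 0.23 and missed the threshold (adjusted p = 0.0105). In Dicer oocytes the values were 204, 197 and 199 in WT and 304, 293 and 280.3 in KO libraries. The groups did not overlap, and *Bub1* rose by 0.55 (SE 0.06, adjusted p = 3.51e-07). A second *Bub1* transcript had 99.6% to 99.9% of the counts of the first in every library, so the same reads stand under both.

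*Bub1b* (NM_009773, chr2:118598202-118641592, plus strand) is part of the complex that holds CDC20. In the Ago2 series it stood at 860.3, 863 and 816 normalized CPM in fl/fl, 848, 827 and 867 in ADH, and 814 and 786 in null libraries. The Ago2 ADH libraries lay within and just above the range of the controls. The higher Ago2 null library (814) was just under the lowest control (816), and these groups overlapped when scaled for their own comparison. The log2 fold changes were 0.05 (SE 0.04) in Ago2 ADH and -0.05 (SE 0.05) in Ago2 null, neither called. Among Dicer libraries it stood at 851, 816 and 934 in WT and at 1043, 1052 and 942 in KO libraries. The lowest KO library was just above the highest WT library. *Bub1b* rose by 0.22 on the log2 scale (SE 0.07, adjusted p = 0.00961), a call close to the threshold that was lost in 6 of 12 alternative settings, including the removal of Dicer WT replicate 1 or 2 or of Dicer KO replicate 1 or 2 (adjusted p of 0.0283 to 0.0627).

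*Bub3* (NM_009774, chr7:131560367-131571895, plus strand) codes for the adaptor that brings BUB1 and BUBR1 to the kinetochore scaffold. It was counted at 124, 119 and 108 normalized CPM in Ago2 fl/fl, 99.0, 105 and 91.5 in Ago2 ADH, and 101 and 108 in Ago2 null libraries. Ago2 ADH libraries lay below the controls, with a log2 fold change of -0.20 (SE 0.06, adjusted p = 0.0106), which just missed the threshold and passed it in 7 of 12 alternatives. The higher Ago2 null library and the lowest control both stood at 108, and the log2 fold change in Ago2 null was -0.13 (SE 0.07, adjusted p = 0.115). In the other series the values were 82.2, 85.1 and 79.4 in Dicer WT and 78.7, 68.7 and 65.3 in Dicer KO libraries, the highest KO library being close to the lowest WT library. The log2 fold change was -0.22 (SE 0.08, adjusted p = 0.0265), and -0.30 without Dicer KO replicate 1 (adjusted p = 0.00385), past the threshold. *Bub3* thus had a lower mean in each mutant than in its control, and was not called at an FDR of 1% in any of the 3 comparisons.

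*Ttk* (NM_009445, chr9:83834651-83872390, plus strand) codes for the kinase MPS1 that starts checkpoint signalling. Its values were 368, 378 and 380.0 normalized CPM in Ago2 fl/fl, 314, 326 and 337 in Ago2 ADH, and 315 and 328 in Ago2 null libraries. All mutant libraries lay below the controls. *Ttk* fell by 0.16 (log2) in Ago2 ADH (SE 0.05, adjusted p = 0.00766) and by 0.19 in Ago2 null oocytes (SE 0.05, adjusted p = 0.00711). Each call was close to the threshold. The first was lost without Ago2 fl/fl replicate 2 or 3 or Ago2 ADH replicate 1 or 2 (adjusted p of 0.0165 to 0.0444), and the second without Ago2 fl/fl replicate 2 or 3 or Ago2 null replicate 1 (adjusted p of 0.0392 to 0.0531). In the Dicer series *Ttk* stood at 461, 476 and 493 in WT and at 487, 477 and 437 in KO libraries, which overlapped, with a log2 fold change of -0.03 (SE 0.06). A second *Ttk* transcript had 78.3% to 85.0% of the counts of the first.

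**Figure D3:**
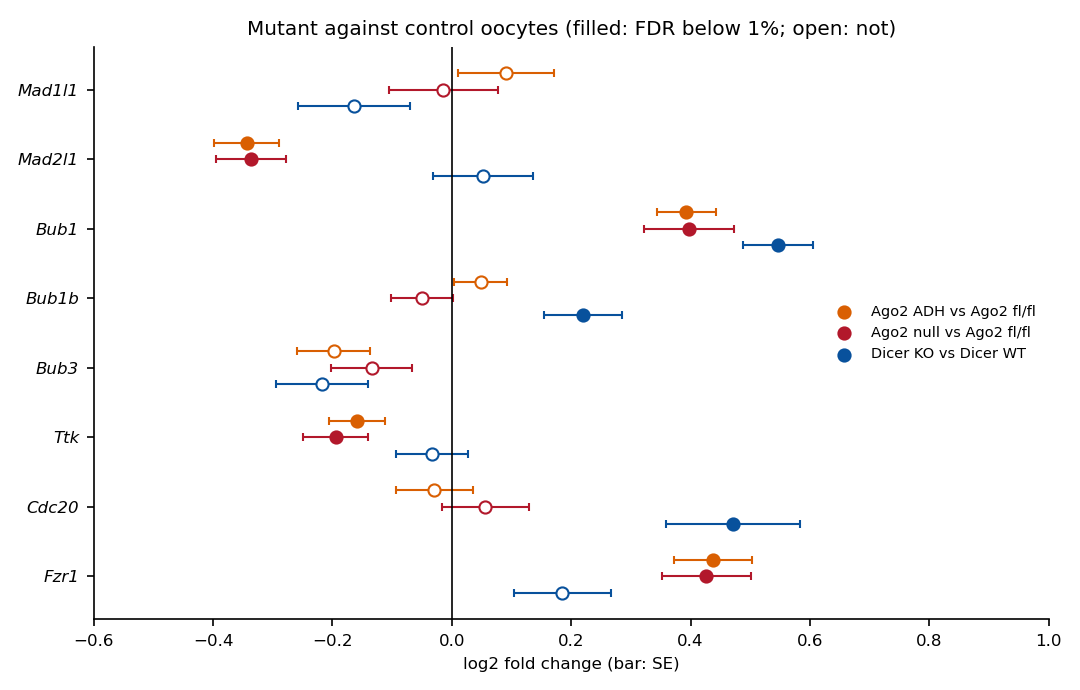
Log2 fold change of each gene in each mutant vs. its control (bars: SE), filled where it passed an FDR of 1%. *Bub1* is filled in all 3 comparisons, *Fzr1*, *Mad2l1* and *Ttk* in both Ago2 comparisons, and *Cdc20* and *Bub1b* in the Dicer comparison.

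*Cdc20* (NM_023223, chr4:118432901-118437343, minus strand), the APC/C activator that the checkpoint holds back, was counted at 43.5, 42.2 and 41.2 normalized CPM in Ago2 fl/fl, 39.8, 41.2 and 39.4 in Ago2 ADH, and 42.6 and 43.5 in Ago2 null libraries. These groups lay close together, with log2 fold changes of -0.03 (SE 0.06) and 0.06 (SE 0.07), neither called. Dicer WT libraries, by contrast, had 22.4, 24.3 and 22.0, and Dicer KO libraries 36.6, 32.7 and 26.3. All KO libraries were above all WT libraries, though they spread widely among themselves. *Cdc20* rose by 0.47 on the log2 scale in Dicer KO oocytes (SE 0.11, adjusted p = 0.00204). Without Dicer KO replicate 1 the rise was 0.36 (adjusted p = 0.0153) and without Dicer KO replicate 2 it was 0.45 (adjusted p = 0.0112), neither below the threshold. *Elovl1* overlaps 53 bases of *Cdc20*, and since reads were counted without regard to strand, those inside this stretch cannot be assigned to either gene.

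*Fzr1* (NM_019757, chr10:81366879-81378370, minus strand), which codes for CDH1, was counted at 60.2, 53.0 and 51.6 normalized CPM in Ago2 fl/fl, 73.2, 69.9 and 72.8 in Ago2 ADH, and 72.4 and 72.1 in Ago2 null libraries. Both mutant groups lay well above the controls and were tight among themselves. *Fzr1* rose by 0.44 (log2) in Ago2 ADH (SE 0.07, adjusted p = 1.76e-05) and by 0.43 in Ago2 null oocytes (SE 0.07, adjusted p = 1.70e-04). For the Dicer pair it stood at 35.3, 33.5 and 36.6 in WT and at 40.6, 40.0 and 39.3 in KO libraries. Here too the groups did not overlap, but the log2 fold change of 0.19 (SE 0.08) was not called (adjusted p = 0.0708).

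Ago2 ADH and Ago2 null oocytes, which differ in whether an inactive AGO2 can still be made, were also compared with each other. None of the 8 genes passed edgeR's test at an FDR of 1%, none had an unadjusted p under 0.05, and none passed in DESeq2. Over all 19306 transcripts tested, edgeR called 0.119%. Their log2 fold changes, Ago2 ADH over null, lay between -0.10 (*Cdc20*, SE 0.08) and 0.09 (*Mad1l1*, SE 0.10). With 3 and 2 libraries this does not show that the levels are equal.

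Whether a gene responded differently to the Ago2 ADH and the Dicer KO genotype was tested as the difference of both effects, in 1 fit over the 4 groups. Of the 8 genes 1 passed, against 3.55% of 19500 transcripts. For *Cdc20* the Ago2 ADH effect was lower than the Dicer KO effect by 0.55 on the log2 scale (difference -0.55, SE 0.13, adjusted p = 0.00967). This call sat at the threshold and was lost in 14 of 18 alternatives, among them 11 of the 12 in which a library was left out, with adjusted p from 3.87e-04 to 0.0374 over all of them. *Mad2l1* had a difference of -0.45 (SE 0.11, adjusted p = 0.0112), which passed in 6 of 18 alternatives. *Bub1b* (-0.22, adjusted p = 0.0825), *Bub1* (-0.20, adjusted p = 0.0871), *Ttk* (-0.18, adjusted p = 0.149), *Fzr1* (0.20, adjusted p = 0.236), *Mad1l1* (0.20, adjusted p = 0.316) and *Bub3* (-0.03, adjusted p = 0.889) did not pass. The calls of *Fzr1* and *Ttk* in the Ago2 mutants alone therefore do not show that these genes respond differently in Dicer KO oocytes.

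The balance of the APC/C activators was read as the log2 ratio of *Cdc20* to *Fzr1* counts within each library, which does not depend on scaling between libraries. It was -0.47, -0.33 and -0.33 in Ago2 fl/fl, -0.88, -0.76 and -0.89 in Ago2 ADH, and -0.77 and -0.73 in Ago2 null libraries. All 5 mutant libraries were below the controls, and the mean difference was -0.47 in Ago2 ADH and -0.37 in Ago2 null. In the Dicer series the ratio was -0.65, -0.46 and -0.73 in WT and -0.15, -0.29 and -0.58 in KO libraries, which overlapped, with a mean difference of 0.27. The 2-sided exact permutation tests gave p = 0.1 for Ago2 ADH, p = 0.2 for Ago2 null and p = 0.2 for Dicer KO, and p = 0.4 for Ago2 ADH vs. Ago2 null. After adjustment over these 4 comparisons the values were 0.267, 0.267, 0.267 and 0.4. With 3 against 3 libraries no p below 0.1 can be reached, and with 2 against 3 none below 0.2.

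**Figure D4:**
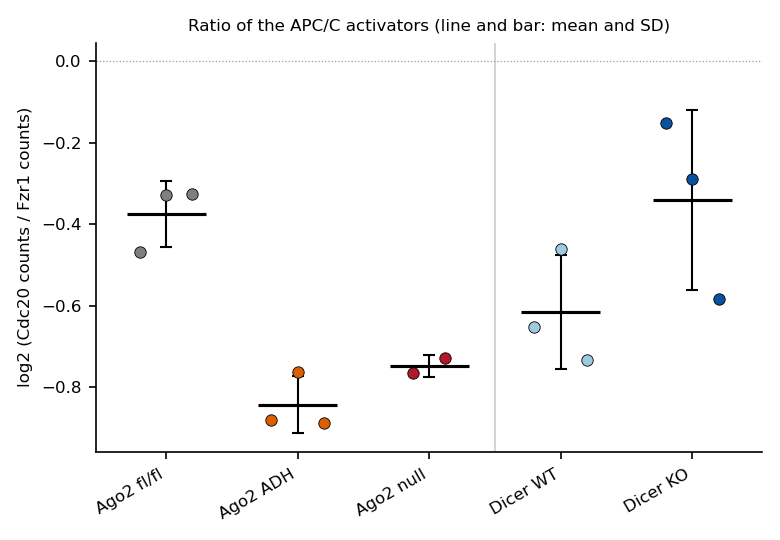
Log2 ratio of *Cdc20* to *Fzr1* counts in each library (points), with the mean and SD of each group. Ago2 ADH and Ago2 null libraries lie between -0.89 and -0.73, below the Ago2 fl/fl libraries, and Dicer KO libraries overlap with Dicer WT.

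The genes whose pattern over the 14 libraries was most like that of *Fzr1*, the gene of the 8 that rose most in Ago2 ADH, were *Gtf2h5* (a subunit of the repair and transcription factor TFIIH), *C1qtnf12* and *Strn4*, with Pearson r of log2 CPM of 0.993, 0.992 and 0.991 among 14938 genes. For *Mad2l1*, which fell most, they were *Rmi2* (a subunit of the complex that dissolves recombination intermediates), *Uggt2* and *Pbld1*, with r of 0.911, 0.882 and 0.882. *Fzr1* stood at 51.6 to 73.2 normalized CPM in the Ago2 libraries and at 33.5 to 40.6 in the Dicer libraries. Its r over 14 libraries thus includes this difference in level between the series and does not show a like response to a mutant genotype. The libraries of a series share genotypes and a control group, so these values describe likeness only.

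The other genes of the pathway were described by 5 lists that hold 48 genes, all of which passed the filter. In Ago2 ADH oocytes 22 of 48 were called, 8 up and 14 down. In Ago2 null oocytes 22 were called, again 8 up and 14 down, and in Dicer KO oocytes 17, 8 up and 9 down. These are 45.8%, 45.8% and 35.4% of the 48, near the 40.7%, 37.2% and 34.5% over all transcripts. Calls down were more than calls up in each mutant. Over all transcripts 20.5%, 18.1% and 16.7% were called up and 20.1%, 19.1% and 17.8% down. No list was tested as a set. Median log2 fold changes of the 48 were -0.08, -0.07 and -0.07, beside 0.00685, 0.00177 and -0.00437 over all transcripts tested. Between Ago2 ADH and Ago2 null oocytes none of the 48 was called by edgeR, 2 had an unadjusted p under 0.05 and 1 was called by DESeq2.

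Of 14 subunits of the APC/C itself, 3 were called in Ago2 ADH (1 up, 2 down), 2 in Ago2 null (1 up, 1 down) and 4 in Dicer KO oocytes (1 up, 3 down). These are 21.4%, 14.3% and 28.6%, beside 40.7%, 37.2% and 34.5% over all transcripts tested. *Anapc13*, a small subunit, stood at 10.1, 9.68 and 9.68 normalized CPM in Dicer WT and at 6.50, 5.40 and 4.97 in Dicer KO libraries. The KO libraries were all lower, and it fell by 0.81 on the log2 scale (SE 0.16, adjusted p = 4.18e-04). In the Ago2 mutants its log2 fold changes were -0.33 (adjusted p = 0.0177) and -0.29 (adjusted p = 0.0431), not called.

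*Ube2c*, the ubiquitin-conjugating enzyme that starts ubiquitin chains on APC/C targets, had the largest increase of the 48 genes in each mutant. It stood at 149, 169 and 172 normalized CPM in Ago2 fl/fl, 389, 423 and 394 in Ago2 ADH, and 433 and 409 in Ago2 null libraries. For the Dicer pair the values were 134, 127 and 143 in WT and 534, 522 and 542 in KO libraries. No mutant library overlapped with a control, and *Ube2c* rose by 1.35 (log2) in Ago2 ADH (SE 0.06, adjusted p = 3.80e-13), by 1.40 in Ago2 null (SE 0.07, adjusted p = 2.93e-11) and by 1.98 in Dicer KO oocytes (SE 0.06, adjusted p = 7.44e-15). The Ago2 ADH effect was lower than the Dicer KO effect by 0.69 (difference -0.69, SE 0.08, adjusted p = 9.07e-06). *Ube2s*, which extends the chains, was called in Ago2 null oocytes (-0.26, adjusted p = 0.00274) and not in Ago2 ADH (-0.16, adjusted p = 0.0207) or Dicer KO (-0.06, adjusted p = 0.555).

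Among 5 APC/C inhibitors and genes that silence the checkpoint, 3 were called in each Ago2 mutant (1 up, 2 down) and 4 in Dicer KO oocytes (2 up, 2 down). In this short list the shares were 60%, 60% and 80%, beside 40.7%, 37.2% and 34.5% over all transcripts tested. *Fbxo5* (EMI1, an inhibitor of the APC/C) rose by 0.51 (log2) in Ago2 ADH, 0.48 in Ago2 null and 0.67 in Dicer KO oocytes (adjusted p = 9.04e-07, 1.58e-05 and 3.59e-07), whereas its relative *Fbxo43* (EMI2, which holds eggs at metaphase II) had log2 fold changes of -0.43, -0.52 and -0.38, each called. *Mad2l2*, a relative of MAD2 that can bind CDH1, fell by 0.54 in Ago2 ADH, 0.39 in Ago2 null and 0.48 in Dicer KO oocytes. *Mad2l1bp* (p31comet, which removes MAD2 from its complexes) rose by 0.87 in Dicer KO oocytes (SE 0.17, adjusted p = 4.32e-04), from 3.83, 4.01 and 4.03 normalized CPM in WT to 7.77, 6.79 and 7.25 in KO libraries. Its changes in Ago2 ADH (0.33, adjusted p = 0.0183) and Ago2 null (0.31, adjusted p = 0.0515) were not called.

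Of 8 APC/C substrates with separase, 5 were called in Ago2 ADH (2 up, 3 down), 4 in Ago2 null (2 up, 2 down) and 2 in Dicer KO oocytes, both up. The shares were 62.5%, 50% and 25%, beside 40.7%, 37.2% and 34.5% over all transcripts tested. *Ccna2* (cyclin A2) rose most, from 185, 186 and 185 normalized CPM in Ago2 fl/fl to 259, 269 and 274 in Ago2 ADH and 263 and 266 in Ago2 null libraries. In the Dicer series it stood at 187, 186 and 209 in WT and at 359.5, 354 and 337 in KO libraries. The log2 fold changes were 0.58 (SE 0.05), 0.54 (SE 0.05) and 0.85 (SE 0.06), all called, and the Ago2 ADH effect was lower than that in Dicer KO by 0.33 (difference -0.33, SE 0.08, adjusted p = 0.00897). *Pttg1* (securin, which CDC20 sends to destruction) rose by 0.24, 0.29 and 0.28, also called in each. The genes called down in Ago2 ADH oocytes were *Ccnb1* (cyclin B1, -0.19), *Ccnb3* (-0.38) and *Plk1* (-0.23). In Ago2 null oocytes *Ccnb3* (-0.43) and *Plk1* (-0.31) were called down, and *Ccnb1* (-0.17) was not called. Their log2 fold changes in Dicer KO oocytes were -0.19 (*Ccnb1*), -0.17 (*Ccnb3*) and -0.15 (*Plk1*), none called.

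The 19 genes of the kinetochore platform on which the checkpoint assembles were called in 10 cases in Ago2 ADH (3 up, 7 down), 11 in Ago2 null (3 up, 8 down) and 6 in Dicer KO oocytes (2 up, 4 down). That is 52.6%, 57.9% and 31.6%, beside 40.7%, 37.2% and 34.5% over all transcripts tested. *Sgo2a* and *Sgo1*, shugoshins that protect cohesin at centromeres, fell in every mutant. *Sgo2a* stood at 94.0, 97.5 and 93.4 normalized CPM in Ago2 fl/fl, 58.1, 55.9 and 53.6 in Ago2 ADH, and 50.9 and 50.1 in Ago2 null libraries. It fell by 0.72 (log2) in Ago2 ADH (SE 0.06, adjusted p = 5.48e-09), by 0.88 in Ago2 null (SE 0.07, adjusted p = 1.36e-08) and by 0.62 in Dicer KO oocytes (SE 0.06, adjusted p = 2.41e-07), where the libraries went from 123, 118 and 126 to 77.9, 83.3 and 78.3. *Sgo1* fell by 0.53, 0.59 and 0.37, and *Cenpf*, a large centromere protein, by 0.48, 0.57 and 0.58, each called.

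*Knl1*, the scaffold that TTK phosphorylates and on which BUB3 and BUB1 dock, went the other way. It was counted at 103, 112 and 112 normalized CPM in Ago2 fl/fl, 130.4, 123 and 144 in Ago2 ADH, and 124 and 131 in Ago2 null libraries. In the Dicer series it stood at 154, 139 and 149 in WT and at 389, 356 and 400.4 in KO libraries. The mutant libraries lay above their controls throughout, and *Knl1* rose by 0.33 in Ago2 ADH (SE 0.06, adjusted p = 2.21e-04), by 0.26 in Ago2 null (SE 0.06, adjusted p = 0.00340) and by 1.37 in Dicer KO oocytes (SE 0.07, adjusted p = 3.00e-12). Its Ago2 ADH effect minus its Dicer KO effect was -1.09 (SE 0.09, adjusted p = 2.22e-08). With *Ube2c* and *Ccna2*, it was 1 of 3 genes among the 48 (6.25%) that passed this test, beside 3.55% of all transcripts tested.

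**Figure D5:**
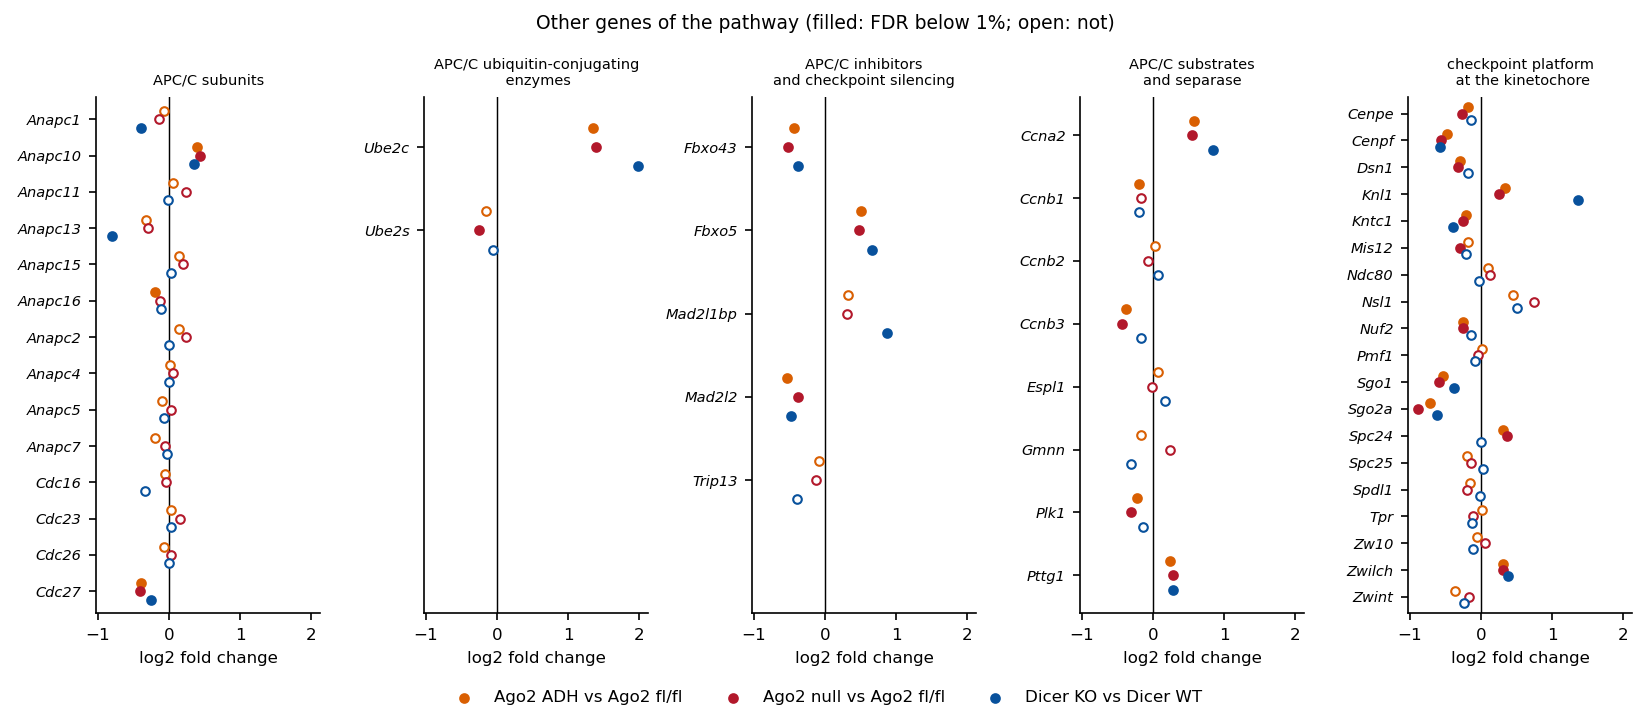
Log2 fold change of the 48 other pathway genes in the 3 mutants, by list, filled where it passed an FDR of 1%. *Ube2c* lies furthest to the right in each comparison, *Knl1* and *Ube2c* are further right in Dicer KO than in the Ago2 mutants, and *Sgo2a*, *Sgo1* and *Cenpf* lie to the left in all 3.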

How the data were processed

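Oocytes of 5 genotypes were compared in 14 libraries, grouped by the labels. The deposited values are raw counts per RefSeq transcript. Per the study's methods and the submitters' processing notes, the authors amplified cDNA with a kit that does not mark strand, aligned reads to mm10 with TopHat2 (2.0.7 in the notes) and counted with htseq-count (HTSeq 0.6.1), without strand and in intersection-strict mode. The methods give separate alignment settings for reads of different lengths, with different limits on mismatches. Which libraries had which read length is not stated there. The part of read length and these settings in the tally of alignments that were not unique, and in the results, was not tested. A read can count on several transcripts of a gene.

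Symbols were found for all but 301 of 26495 IDs. Each comparison used edgeR 4.0.16 in R 4.3.3 on its own groups (filterByExpr with minimum count 10, TMM, quasi-likelihood test, Benjamini-Hochberg adjustment, FDR 1%), and the Ago2 ADH and Dicer KO effects were compared as an interaction. The code was tested on simulated data. Normalized CPM uses TMM factors over all 14 libraries, so group means can differ slightly from fitted folds. Pathway genes were named by rule: the 3 largest increases and decreases called in each comparison, counting genes whose normalized counts averaged 100 or more. Genes most like a member were ranked by Pearson r of log2 CPM (prior count 2), over 14 libraries. *Ccnb1*, *Ccnb3*, *Fbxo43*, *Plk1*, *Pttg1* and *Ube2s* fall outside this rule and were named after their values were seen. The 8 genes and all lists were chosen with earlier results of these data known. Alternatives were DESeq2 1.42.0, RLE scaling, no filter, 1 transcript per gene, all 5 groups in one fit, a replicate block, each library left out, and an FDR of 5%. Libraries of a group are pools collected separately, and p-values measure the spread between them. Promoters and coordinates are from RefSeq on GRCm38.p6, transcript lengths from GENCODE. Protein sequences were not used here.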

Additional observations from a re-analysis of the deposited data

Results flagged for a closer look

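For *Cdc20* the Ago2 ADH effect was lower than the Dicer KO effect by a log2 difference of -0.55 (SE 0.13, edgeR adjusted p = 0.00967). All 3 Dicer KO libraries were above their controls, and the Ago2 ADH libraries overlapped with theirs. This call was lost in 14 of 18 alternatives. The same test of the difference singled out *Knl1* (-1.09, adjusted p = 2.22e-08), *Ube2c* (-0.69, adjusted p = 9.07e-06) and *Ccna2* (-0.33, adjusted p = 0.00897), which rose in both mutants and more in Dicer KO oocytes. The Ago2 and Dicer series are separate sets of libraries, and what this contributes to these differences was not tested.

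Alignments that were not unique, a tally outside the comparisons, averaged 1.61 per count on transcripts in Ago2 ADH and 1.61 in Ago2 null libraries beside 0.572 in Ago2 fl/fl, and 1.03 in Dicer KO beside 0.458 in Dicer WT. Each mutant library was above each of its controls.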

How the results depend on the processing

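Of 512 alternative values of a log2 fold change of the 8 genes, 450 kept their direction and their side of the threshold, 32 lost and 14 gained a call and 16 changed sign, all of the last from values that were not called. Called in every alternative were 3 of 4 genes in Ago2 ADH (*Bub1*, *Fzr1*, *Mad2l1*), 2 of 4 in Ago2 null (*Fzr1*, *Mad2l1*) and 1 of 3 in Dicer KO oocytes (*Bub1*). When any 1 library was left out, the number of the 8 genes called was 3 to 4 in Ago2 ADH, 3 to 4 in Ago2 null, 1 to 3 in Dicer KO and 0 to 2 for the difference of the Ago2 ADH and Dicer KO effects, and of the 48 pathway genes 16 to 23, 13 to 20 and 15 to 17. The count of 1 in Dicer KO came without Dicer KO replicate 2, and the pathway count of 13 in Ago2 null without Ago2 fl/fl replicate 2. The count for the difference was 0 in 10 of the 12 fits that left out 1 library, 1 without Dicer WT replicate 1 and 2 without Dicer KO replicate 3. It was 2 with DESeq2, without a filter, with all 5 groups in one fit and at an FDR of 5%, and 0 with RLE scaling and with 1 transcript per gene. Between Ago2 ADH and Ago2 null oocytes 1 pathway gene was called with DESeq2, without a filter, with the replicate block and at an FDR of 5%. The log2 *Cdc20* to *Fzr1* ratio differed by -0.52 to -0.44 (Ago2 ADH), -0.42 to -0.35 (Ago2 null) and 0.18 to 0.40 (Dicer KO) with a library left out, and summing transcripts changed nothing since each gene had 1. Left-out libraries changed the sign of *Mad1l1* in Ago2 null (-0.11 to 0.0735), *Mad2l1* (-0.0431 to 0.13) and *Ttk* (-0.0653 to 0.0131) in Dicer KO, *Bub3* in the difference of effects (-0.0886 to 0.0484), and, between Ago2 ADH and Ago2 null, *Mad1l1* (-0.00324 to 0.19), *Mad2l1* (-0.0741 to 0.0137), *Bub1* (-0.17 to 0.15), *Ttk* (-0.0122 to 0.0441) and *Fzr1* (-0.0212 to 0.0210). The cause was not tested.

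Same-numbered libraries did not deviate together (correlations of -0.13 to 0.04). In the Ago2 ADH comparison 3 of 6 libraries, and in the Dicer KO comparison 1 of 6, deviated most like the library of their own number. The main fits therefore did not pair libraries by number. With so few libraries this does not show that no pairing exists. With the replicate block, 4, 3, 2 and 0 of the 8 genes were called in Ago2 ADH, in Ago2 null, in Dicer KO and between Ago2 ADH and Ago2 null, and 1 in the difference of effects. These were not all the genes called without it: *Ttk* was not called in Ago2 ADH (adjusted p = 0.0102) and Ago2 null (0.0830), nor *Bub1b* in Dicer KO (0.0309) and *Cdc20* in the difference (0.0133), whereas *Bub3* in Ago2 ADH (0.00582) and *Mad2l1* in the difference (0.00312) were, and *Ttk* between Ago2 ADH and Ago2 null was at -0.0118. Where 1 of the 2 Ago2 null libraries was left out, the lone one was assumed to vary like the others. The 8 genes had 683 to 51155 counts in a library, so counting error weighs most on *Mad1l1*, *Cdc20* and *Fzr1* and least on *Bub1b*.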
